A study of Tupaia belangeri with 8 samples.

Results

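The miR-29 family is a group of near-identical microRNAs, short RNAs that guide repressor complexes to messenger RNAs. Its members were taken by name from a table of 384 miRNAs, and 3 rows carry a miR-29 name, tch-miR-29a-3p, tch-miR-29b-3p and tch-miR-29c-3p. They were measured in all 8 small RNA libraries of primary neurons from the brain of neonatal tree shrews (Tupaia belangeri), a small mammal close to primates. The cells had been kept for 24 h with or without methamphetamine (METH), a stimulant drug that makes neurons release dopamine. The 4 PBS libraries came from cells rinsed with phosphate-buffered saline and given medium alone, and the 4 METH libraries from cells that received 5 µl of a methamphetamine stock, labelled 100 mmol, in 995 µl of medium. The medium of all wells contained 15% serum from fetal calves and the B-27 supplement. Genotype, strain and sex are not labelled. Nor is it labelled whether replicates came from different animals or dishes, so the p-values reflect the spread among samples that could be technical repeats.

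Members of the miR-29 family share a seed, the bases near the start of a miRNA that pair with its targets, and so share most targets. In human and mouse cells they are known to repress collagens, elastin and other extracellular matrix genes, and the DNA methyltransferases DNMT3A and DNMT3B. In mouse neurons the family rises with maturation and represses BH3-only genes, which start apoptosis. miR-29b is also known, from human cells, for an end sequence that carries it into the nucleus. In the RefSeq gene table of the tree shrew assembly TupChi_1.0, MIR29A is listed next to MIR29B-2, between the protein-coding genes KLF14 and MKLN1. MIR29C is listed next to MIR29B-1, between CD46 and CD34. The mature miR-29b of both loci was counted in the same row, and mature sequences were not used here. Reads that could belong to several of these near-identical miRNAs cannot be separated, so every level below is the authors' own assignment.

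Total counts over the listed miRNAs ran from 339243 to 778888 in 6 libraries, and the 2 numbered 4 held 7334789 (PBS) and 6702946 (METH). PBS 1, PBS 3 and METH 3 stood apart on the first principal component, which held 65.7% of the variance, and were also the 3 with the lowest totals. In them miR-21-5p lay between 52605 and 75284 TPM (a miRNA's reads scaled to the same total in each library), against 334893 to 493032 TPM in the other 5. Of 10 neuronal markers 5 were in the table (miR-9-5p, miR-128, miR-129-5p, miR-218-5p and miR-7-5p), with summed levels from 20754 to 94069 TPM. miR-124, the defining neuronal miRNA, matched no row. Of 6 fibroblast and smooth muscle markers 3 were found, and their sum lay between 16689 and 60941 TPM in PBS and between 13571 and 59377 TPM in METH. These cultures were sequenced in bulk, so fewer cells of a type and less RNA per cell cannot be told apart.

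miR-29a-3p, the product of MIR29A, supplied nearly all reads of the family. Its counts in PBS libraries 1 to 4 were 810, 950, 584 and 21197, and those in METH libraries 1 to 4 were 713, 1673, 563 and 23839. As levels these were 1540, 1220, 1504 and 2890 TPM for PBS, while the METH libraries had 1109, 2458, 1660 and 3556 TPM. The highest levels were in the 2 libraries numbered 4 and the lowest in METH 1, so the ranges of PBS and METH overlapped. It ranked from 25th to 58th of the 384 miRNAs by library, and its highest level was 3.21-fold its lowest.

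miR-29b-3p was a minor member with a far wider range. Its counts were 4, 31, 5 and 621 in PBS and 26, 73, 4 and 975 in METH. The levels were 7.60, 39.8, 12.9 and 84.7 TPM for PBS, while the METH libraries had 40.4, 107, 11.8 and 145 TPM. PBS 1, PBS 3 and METH 3 were lowest, with 4 or 5 reads each, and METH 4 was highest, 19.1-fold above PBS 1. The ranges of PBS and METH overlapped, and the rank of miR-29b-3p lay between 103 and 201.

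miR-29c-3p, the product of MIR29C, was close to the limit of detection. It had 2, 1, 2 and 29 reads in PBS and 3, 5, 2 and 35 in METH. The corresponding levels were 3.80, 1.28, 5.15 and 3.95 TPM for PBS, while the METH libraries had 4.67, 7.35, 5.90 and 5.22 TPM. In the 6 shallower libraries, a read was worth 1.28 to 2.95 TPM. Only the libraries numbered 4 fixed the level closely, at 3.95 TPM (exact 95% interval 2.65 to 5.68) in PBS 4 and 5.22 TPM (3.64 to 7.26) in METH 4. These intervals cover counting error only, since the labels mention no molecular identifiers.

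**Figure D1:**
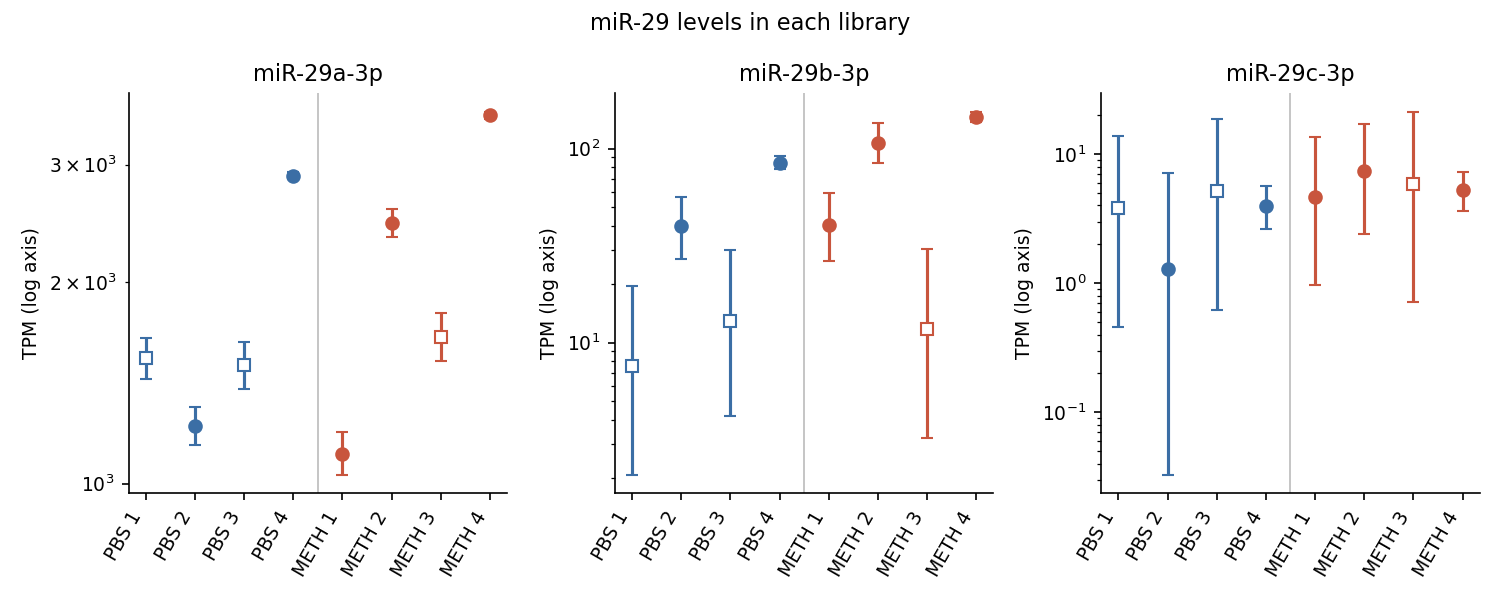
Level of each miR-29 member in TPM (log axis, a different range in each panel) in the 4 PBS libraries (blue) and the 4 METH libraries (red), with exact Poisson 95% intervals for counting error. Open squares are PBS 1, PBS 3 and METH 3, where miR-29b-3p lay between 7.60 and 12.9 TPM, while it lay between 39.8 and 145 TPM in the other 5.

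The order of the members was the same in every library. miR-29a-3p held from 95.5% to 99.3% of the family's reads, with a Wilson 95% interval of 94.5% to 96.4% in METH 2 and 98.4% to 99.7% in PBS 1. miR-29b-3p held from 0.490% to 4.17%, and miR-29c-3p from 0.102% to 0.404%. On the geometric mean over the 8 libraries, with 0.5 added to each count, miR-29a-3p had 49.7 times the reads of miR-29b-3p and 366 times those of miR-29c-3p. miR-29b-3p had 7.38 times the reads of miR-29c-3p, a mean that gives equal weight to libraries with few reads. In PBS 4 it had 21.4 times those reads (exact 95% interval 14.8 to 32.2), and in METH 4 27.9 times (19.9 to 40.2). The member named first had more reads in 8 of 8 libraries for each of the 3 ratios (exact two-sided sign-flip test over 256 sign patterns, p = 0.00781, the smallest that 8 libraries allow, and 0.00781 after adjustment over the 3 ratios). Counts carry no length term, and how well each miRNA is ligated and amplified differs between sequences, so these are ratios of reads and not of molecules. In PBS 1, PBS 3 and METH 3, miR-29b-3p and miR-29c-3p were separated by at most 3 reads, and their order there was within counting error.

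The share of miR-29b-3p varied widely between libraries. Per 100 reads of miR-29a-3p there were 0.494, 3.26, 0.856 and 2.93 reads of miR-29b-3p in PBS 1 to 4. METH 1 to 4 had 3.65, 4.36, 0.710 and 4.09. The ratio therefore spanned 7.91-fold, with 0.5 added to each count. PBS 1, PBS 3 and METH 3 were the 3 lowest, and the highest upper bound among their exact 95% intervals, 2.01 in PBS 3, lay below the lowest lower bound among the other 5, 2.20 in PBS 2. Over all libraries together the ratio was 3.46 per 100, and the intervals of 5 of the 8 libraries left it out. Exceeding counting error is not particular to this ratio, since over all miRNAs each of the 12 pairs of libraries within a group differed beyond it, with a chi-square of 358 to 4973 per degree of freedom. On TPM miR-29a-3p did not follow this division, with 1504 to 1660 TPM in those 3 libraries and 1109 to 3556 TPM in the others. This depended on the scale. On normalised CPM, where the totals are adjusted for composition, it had 1044, 817 and 1483 in PBS 1, PBS 3 and METH 3. The other 5 had 1495 to 4491, so the 3 were then its lowest too. The 3 also had the lowest totals, the lowest miR-21-5p and the lowest miR-143-3p, which marks mesenchymal cells, at 1250 to 9065 TPM against 18044 to 52563 TPM. The other abundant mesenchymal marker, miR-199b-3p, did not follow the division, at 12313 to 25594 TPM in the 3 and 8353 to 23582 TPM in the others. The summed neuronal markers overlapped too, at 24844 to 94069 TPM in the 3 and 20754 to 73484 TPM in the others. Taken singly, miR-129-5p was higher in each of the 3, at 2865 to 15072 TPM against 144 to 1372 TPM. miR-218-5p was lower in each, at 353 to 688 TPM against 1249 to 2307 TPM. The ranges of miR-9-5p, miR-128 and miR-7-5p overlapped. The summed fibroblast and smooth muscle markers, of which 3 of 6 were found, ran from 13571 to 34689 TPM in them and from 33765 to 60941 TPM in the others. The leukocyte markers, of which 2 of 3 were found, ran from 3110 to 5344 TPM and from 391 to 883 TPM. All 4 epithelial markers were found, and they ran from 46.3 to 549 TPM and from 4.41 to 23.1 TPM. The part of these markers and of depth in the ratio was not tested. These 3 libraries stood apart on the first principal component, and the share of all miRNAs that divide them from the others was not computed. The division is therefore not shown to be particular to miR-29b-3p.

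For miR-29c-3p no such difference was detectable. Per 100 reads of miR-29a-3p it had 0.137 (exact 95% interval 0.0916 to 0.197) in PBS 4 and 0.147 (0.102 to 0.204) in METH 4. In the 6 shallower libraries it had 0.105 to 0.421 from 1 to 5 reads. The ratio over all libraries together, 0.157, lay within the intervals of 8 of 8 libraries.

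**Figure D2:**
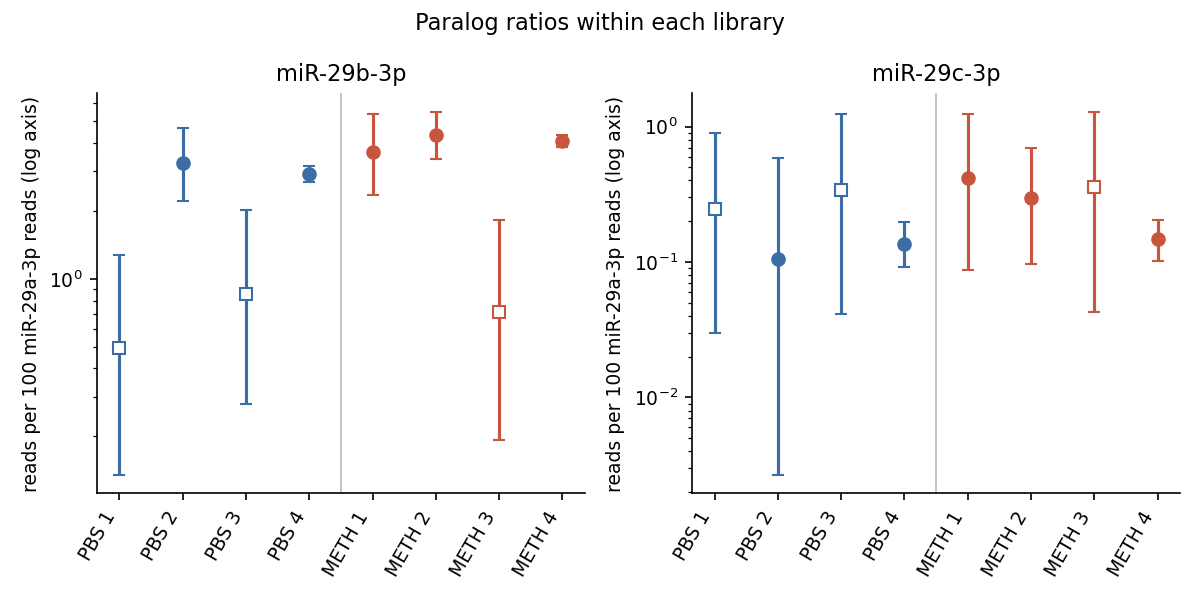
Reads of miR-29b-3p (left) and of miR-29c-3p (right) per 100 reads of miR-29a-3p in each library (log axes), with exact 95% intervals for counting error, PBS in blue, METH in red and PBS 1, PBS 3 and METH 3 as open squares. The left panel shows 3 libraries between 0.494 and 0.856 and 5 between 2.93 and 4.36, while in the right panel the intervals of all 8 libraries contain 0.157.

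The study set out to find mechanisms of neuronal damage by METH. None of the 3 members passed the test between METH and PBS. miR-29a-3p averaged 1789 ± 1178 normalised CPM over the PBS libraries and 2475 ± 1415 over the METH libraries (SD, n = 4 each), where normalised CPM are such levels after TMM scaling, which adjusts the totals for differences in composition. Its log2 fold change was 0.47 (SE 0.60, 95% interval −0.85 to 1.79, edgeR adjusted p = 0.999), with 2 of 4 METH libraries above the PBS mean. miR-29b-3p averaged 43.4 ± 45.9 in PBS and 88.7 ± 74.4 in METH, with 3 of 4 METH libraries above the PBS mean. Its log2 fold change was 1.03 (SE 1.06, 95% interval −1.29 to 3.36, edgeR adjusted p = 0.999), an interval that runs from 0.408-fold to 10.2-fold. The test passed 0 of 166 miRNAs that cleared the count filter, a background of 0%, and 0 had an unadjusted p under 0.05. DESeq2 called 0 as well, and 1 miRNA reached an unadjusted p below 0.05 with it.

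2 of the 3 members cleared the filter, and miR-29c-3p did not. In the fit of all 384 miRNAs with no filter its log2 fold change was 0.87 (SE 0.94, 95% interval −1.11 to 2.85, edgeR adjusted p = 0.999), and 0 of 384 passed, again 0%, and 10 (2.6%) had an unadjusted p below 0.05. On the normalised CPM scale its level was 2.58, 1.97, 2.80 and 4.68 in PBS and 6.29, 7.26, 5.27 and 6.59 in METH. Every METH library thus lay above every PBS library on that scale, as in 1 of 384 miRNAs (0.26%), miR-29c-3p itself. In 2 of 384 (0.521%) every METH library lay below every PBS library. On TPM the ranges of miR-29c-3p overlapped, since PBS 3 at 5.15 TPM exceeded METH 1 at 4.67 TPM. There 0 of 384 miRNAs (0%) were higher in METH without overlap. The separation of miR-29c-3p thus depended on the TMM factors, which ran from 0.65 in PBS 2 to 1.84 in PBS 3, and on libraries with 1 to 5 reads.

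Leaving out libraries moved the estimates more than the choice of tool did. Without METH 4 the log2 fold change was 0.03 for miR-29a-3p and 0.41 for miR-29b-3p, and without PBS 4 it was 0.98 and 1.85. Without PBS 1 these were 0.24 and 0.61, and without PBS 3 they were 0.15 and 0.61. Without PBS 1, PBS 3 and METH 3 miR-29a-3p had 0.02 and miR-29b-3p 0.45. miR-29c-3p ranged from 0.73 without PBS 2 to 1.42 without PBS 4. With total counts in place of TMM the 3 members had 0.30, 1.05 and 0.71. All 3 estimates stayed above 0 in each of these fits. The median of all 166 miRNAs was itself 0.21 with TMM, with 126 above 0 and 40 below. Upper quartile factors gave a median of 0.02, DESeq2 size factors 0.05 and total counts −0.14, where 64 lay above 0 and 102 below. Relative to that median, miR-29a-3p lay 0.25 higher with TMM and 0.44 with total counts, and miR-29b-3p lay 0.82 and 1.20 higher.

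**Figure D3:**
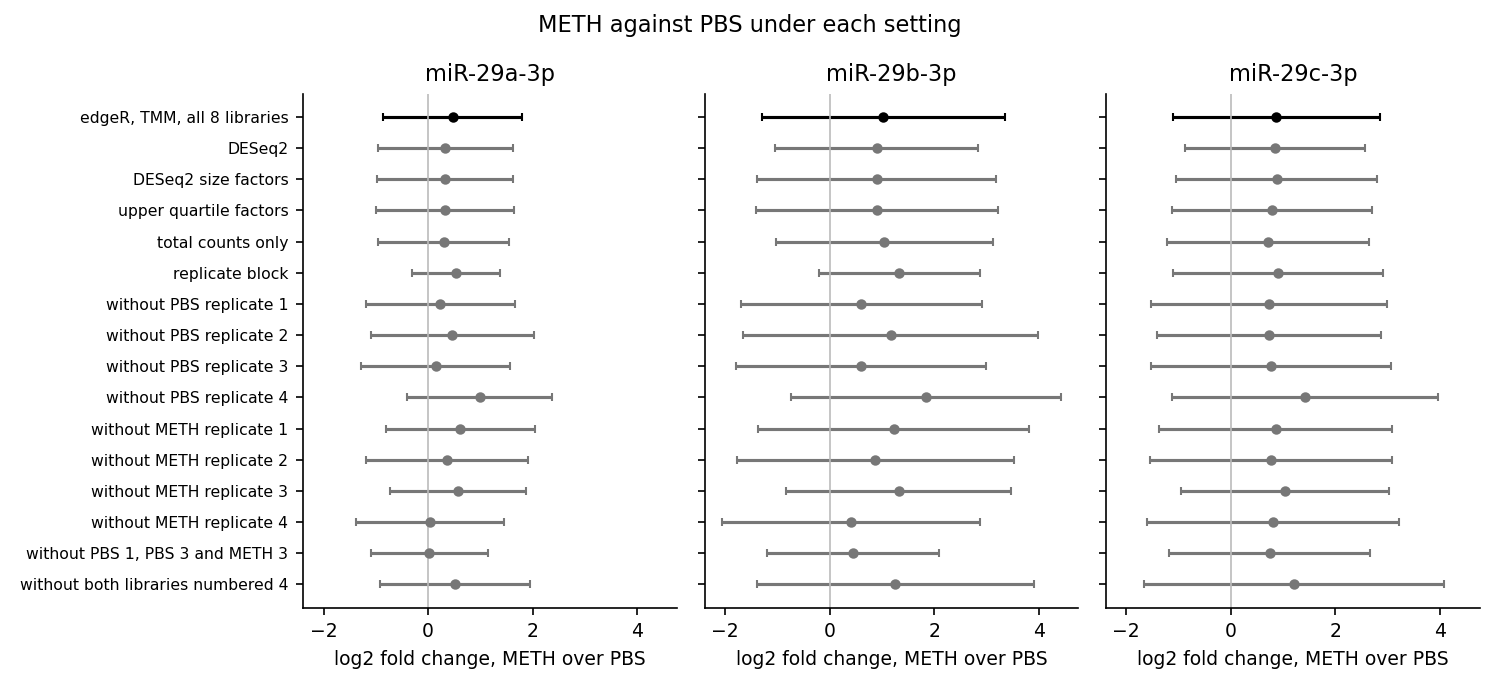
Log2 fold change of METH over PBS with its 95% interval for the 3 members, for the edgeR fit of all 8 libraries (black) and for the alternative tools, scalings, pairing and left-out libraries (grey). Every interval contains 0, and the estimate for miR-29a-3p runs from 0.02 to 0.98.

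Within the family, the difference between METH and PBS was compared through the ratios, which need no library scaling. The log2 ratio of miR-29b-3p to miR-29a-3p was −6.06 ± 1.26 in PBS and −5.21 ± 1.18 in METH (SD, n = 4 each), a difference of 0.85 (exact two-sided permutation p = 0.229 over 70 splits, 0.471 adjusted over the 3 ratios). That of miR-29c-3p to miR-29a-3p was −8.75 ± 0.77 and −8.28 ± 0.78, a difference of 0.47 (exact permutation p = 0.314, adjusted 0.471). That of miR-29c-3p to miR-29b-3p was −2.69 ± 1.97 and −3.07 ± 1.67, a difference of −0.38 (exact permutation p = 0.83, the same after adjustment). The smallest p of this design is 0.0286. The differences were smaller than the SD within a group for each of the 3 ratios.

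The first of these ratios narrowed once the libraries that stood apart were left out. In the other 5 libraries there were 2.93 and 3.26 reads of miR-29b-3p per 100 of miR-29a-3p in the 2 PBS libraries and 3.65 to 4.36 in the 3 METH libraries. The log2 difference was 0.38 (exact permutation p = 0.1, the smallest that 10 splits allow, and 0.3 adjusted). The libraries left out here are those with the lowest values of this same ratio, so the 5 are not a sample chosen independently of it. In the deep libraries the values were 2.93 (exact 95% interval 2.70 to 3.17) in PBS 4 and 4.09 (3.83 to 4.36) in METH 4, a difference beyond counting error. By TPM, METH 4 had 1.23 times the miR-29a-3p of PBS 4 (exact 95% interval 1.21 to 1.25), 1.72 times the miR-29b-3p (1.55 to 1.90) and 1.32 times the miR-29c-3p (0.784 to 2.24). These intervals compare those libraries and not the conditions. Without METH 3 the log2 difference over the remaining 7 libraries was 1.43, and without PBS 1 it was 0.37.

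Of the counts in PBS 1 to 4, the 3 members together made up 0.155%, 0.126%, 0.152% and 0.298%. They made up 0.115%, 0.257%, 0.168% and 0.371% of those in METH 1 to 4. The means were 0.183% ± 0.0778 in PBS and 0.228% ± 0.112 in METH (SD, n = 4 each), a difference of 0.0450 percentage points (exact two-sided permutation p = 0.543), with 2 of 4 METH libraries above the PBS mean. Without METH 4 the difference was −0.00267 percentage points. With miR-21-5p left out of the total, it was 0.0960 percentage points (exact permutation p = 0.486).

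Neither miR-29a-3p nor miR-29b-3p was the miRNA nearest to the other. Likeness was measured as the SD over the 8 libraries of the log2 ratio of their counts, which is free of library scaling, among 166 miRNAs that share libraries and depth. The SD between miR-29a-3p and miR-29b-3p was 1.22, beside a median of 1.24 between miR-29a-3p and the other 165 and of 2.05 between miR-29b-3p and its other 165. The nearest to miR-29a-3p were miR-194-5p (SD 0.27), a p53-induced miRNA, miR-22-3p (SD 0.32) and miR-27b-3p (SD 0.41), and miR-29b-3p came 79th. The nearest to miR-29b-3p were miR-21-5p (SD 0.62), which injury induces in many cell types, miR-656 (SD 0.76), of the imprinted DLK1-DIO3 cluster, and miR-374a-5p (SD 0.76), and miR-29a-3p came 31st. miR-22-3p lay between 1429 and 3659 TPM, a range like that of miR-29a-3p. miR-194-5p lay between 9.33 and 29.8 TPM and miR-374a-5p between 5.90 and 301 TPM. In METH 3 they had 11.8 and 5.90 TPM, where 1 read was worth 2.95 TPM, so their ranks rest partly on few reads. miR-656 lay between 28.3 and 191 TPM and was lowest in PBS 3, PBS 1 and METH 3, as miR-29b-3p was lowest in these libraries. None of these 6 miRNAs passed the test between METH and PBS, with edgeR log2 fold changes from 0.21 for miR-194-5p to 1.05 for miR-656 (edgeR adjusted p = 0.999 for each).

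**Figure D4:**
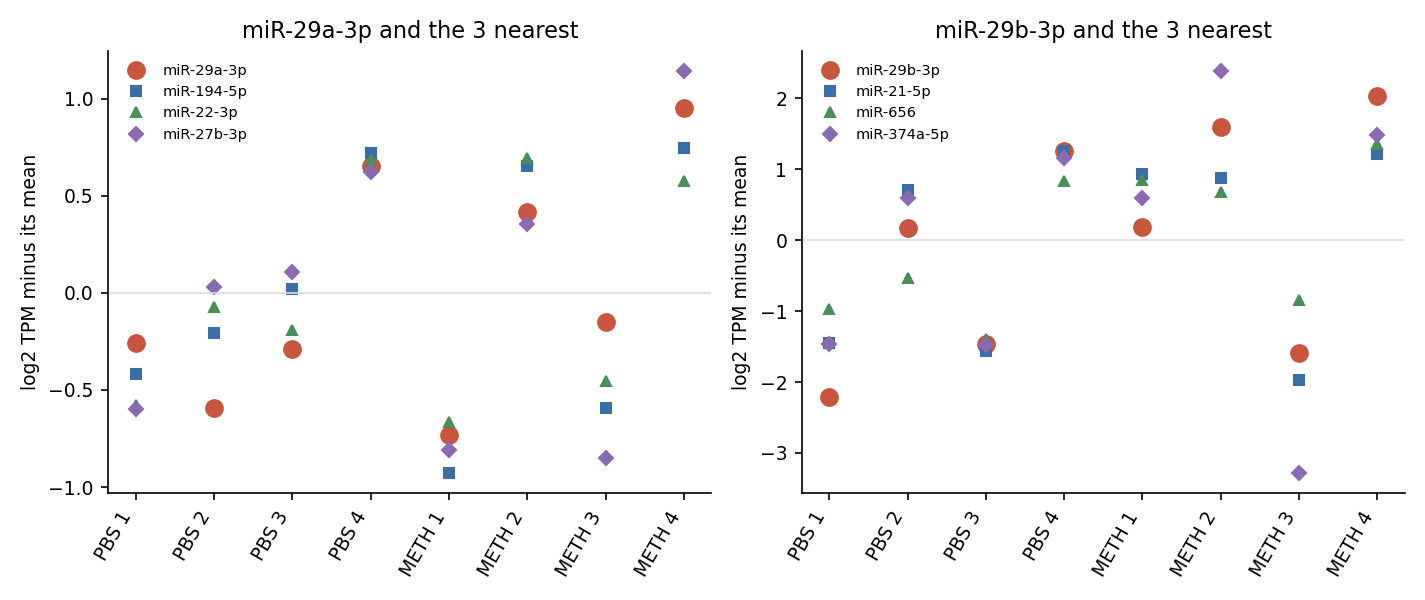
Log2 TPM minus its mean over the 8 libraries for miR-29a-3p (left) and miR-29b-3p (right), each with the 3 miRNAs whose count ratio to it varied least. miR-29b-3p and its neighbours are low in PBS 1, PBS 3 and METH 3, where miR-29a-3p lies between 1504 and 1660 TPM. On normalised CPM, not shown here, miR-29a-3p was also lowest in these 3 libraries.

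The same measure was taken for all 27 pairs of miRNAs that cleared the filter and share a number and an arm but differ in their letter. The miR-29a-3p and miR-29b-3p pair had the eighth largest SD, 1.22, with 0.43 from counting error alone and a median over the pairs of 0.67. The pairs with the smallest SD were let-7a-5p with let-7f-5p (0.23, of the differentiation-promoting let-7 family) and miR-125a-5p with miR-125b-5p (0.33). Counting error alone would give 0.26 for the let-7 pair, so its SD is within counting error, and 0.03 for the miR-125 pair. Those with the largest were miR-9771f with miR-9771m (2.98) and miR-148a-3p with miR-148b-3p (2.88). Pairs share members and libraries, so these values are a description.

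**Figure D5:**
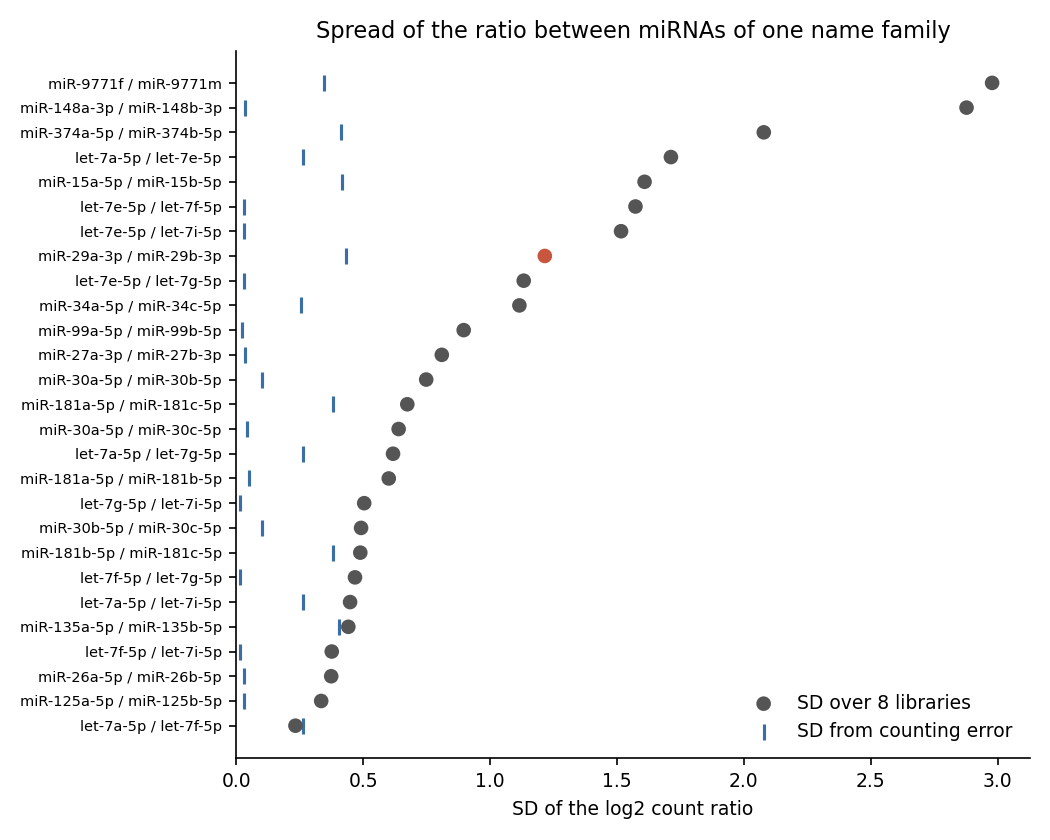
SD over the 8 libraries of the log2 count ratio for each of 27 pairs of same-numbered miRNAs (dots, the miR-29a-3p and miR-29b-3p pair in red) and the SD that counting error alone would give (blue bars). The miR-29 pair, at 1.22, lies above the median of 0.67 and above its counting error of 0.43.

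The miRNAs that share known roles with miR-29 did not pass either. Of the repressors of DNA and histone methylation enzymes, 6 of 6 were tested and 0 passed, with 4 above 0 and 2 below and a median log2 fold change of 0.34, beside 0.21 over all 166. Among them miR-148b-3p had 0.44 (SE 0.51) and miR-101, which represses the histone methyltransferase EZH2, had 0.78 (SE 1.12). miR-26b-5p had 0.24 (SE 0.45), and miR-152, which represses the maintenance enzyme DNMT1, had 0.49 (SE 1.05). miR-101 was low in PBS 1, PBS 3 and METH 3, at 137, 79.8 and 50.1 TPM against 674 to 1526 TPM in the other 5, and miR-148a-3p and miR-152 were also lower in each of the 3 than in any other library. miR-148b-3p was higher in them, at 5806 to 8634 TPM against 1646 to 4377 TPM, and the ranges of miR-26a-5p and miR-26b-5p overlapped. The share of all miRNAs that divide these libraries without overlap was not computed. The division is therefore not shown to be particular to this list.

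Of 13 regulators of apoptosis, 11 were in the table and 10 were tested, and 0 passed. Of the 10, 9 lay above 0 and 1 below, with a median of 0.44, beside 0.21 over all 166. With upper quartile factors or DESeq2 size factors 7 lay above 0, and with total counts 6. Over all 166 miRNAs, 126 lay above 0 with TMM, 88 with upper quartile factors, 93 with DESeq2 size factors and 64 with total counts. miR-20a-5p, of the growth-promoting miR-17-92 cluster, had 0.55 (SE 0.49), and miR-15a-5p, which represses BCL2, had 0.66 (SE 0.64). miR-221-3p had 0.61 (SE 0.63), and miR-34a-5p, a direct target of p53, had 0.56 (SE 0.63). Of 13 miRNAs of extracellular matrix and fibrosis, 7 were in the table and 3 were tested, with a median of 0.39, and 0 passed. These were miR-199b-3p at 0.52 (SE 0.53), miR-143-3p at −0.47 (SE 1.14) and miR-21-5p, which also counts among the apoptosis regulators, at 0.39 (SE 1.02). Of 11 neuron-enriched miRNAs 5 were tested, with a median of 0.28, and 0 passed. All 5 lay above 0 with TMM and 4 with each of the other scalings. miR-129-5p had 1.15 (SE 1.15), miR-9-5p 0.53 (SE 0.72), miR-128 0.24 (SE 0.48) and miR-7-5p 0.28 (SE 1.07).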

How the data were processed

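Small RNA reads of 8 samples were analysed from 1 table. The authors deposited raw read counts and TPM per miRNA, per the file headers. The deposited TPM equal counts scaled to a library's total (largest difference 4.51e-05), so they hold no length term. For the aligner, the miRNA reference and the build, no source used here gives a name. Groups came from the titles. All titles end in the same replicate tag, so the number after the group name was taken as the replicate number.

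METH was compared with PBS on the counts with edgeR 4.0.16 in R 4.3.3 (TMM, filterByExpr with a minimum count of 10 and total of 15, robust quasi-likelihood F test, Benjamini-Hochberg at 0.05). The filter kept 166 of 384 miRNAs and at least 99.8% of each library's counts. miR-29c-3p was taken from the fit with no filter. Standard errors were derived from the F statistic, with 95% intervals. Ratios (0.5 added to counts) and shares were tested with exact permutation and sign-flip tests. The edgeR code was checked on simulated counts with large changes and far less spread than these data, whose coefficient of variation beyond counting was 78.4%. That check therefore does not tell what size of change could be found here. The exact tests were checked on small examples with known p.

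Named miRNAs are the 3 members, the 3 nearest to miR-29a-3p and to miR-29b-3p, the 4 tested miRNAs with the lowest p in each list, and the pairs with the smallest and largest SD. Others, such as the cell type markers and the further pairs, were named after their values were seen. Members and lists were chosen with earlier results of these data known.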

Additional observations from a re-analysis of the deposited data

Results flagged for a closer look

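With 4 samples a group, 20 groups of values were screened for a library far from the others, and chance flags about 1 in 20. METH 3 lay far below the other METH libraries in the log2 ratio of miR-29b-3p to miR-29a-3p, at −6.97 against −4.75 to −4.51. It rests on 4 reads of miR-29b-3p, and METH 3 had the lowest total count, 339243. PBS 4, the library with the most counts, held 0.298% of its counts in the 3 members, against 0.126% to 0.155% in the other PBS libraries.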

How the results depend on the processing

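edgeR or DESeq2 called 0 miRNAs in each fit. Of 149 alternative values of 11 results, 141 kept their direction and their side of the threshold. For the METH minus PBS ratios and share, this says nothing of stability under the block, whose smallest exact p is 0.125, or without PBS 1, PBS 3 and METH 3 or both libraries numbered 4, where it is 0.1. The log2 fold changes over left-out libraries ran from 0.03 to 0.98 for miR-29a-3p, from 0.41 to 1.85 for miR-29b-3p and from 0.73 to 1.42 for miR-29c-3p. The difference in the log2 ratio of miR-29c-3p to miR-29b-3p, −0.38, changed sign without PBS 1, PBS 3 or METH 4 in turn (from −1.12 to 0.24 over the left-out libraries: 0.24, 0.14 and 0.19 in these) and was 0.58 without PBS 1, PBS 3 and METH 3. The family's share changed sign without METH 4, at −0.00267 percentage points, and ranged up to 0.0833 without PBS 4. Without PBS 1, PBS 3 and METH 3, the mean log2 ratios of −4.78 (miR-29b-3p to miR-29a-3p), −8.82 (miR-29c-3p to miR-29a-3p) and −4.05 (miR-29c-3p to miR-29b-3p) had an exact sign-flip p of 0.0625, the smallest that 5 libraries allow. miR-29c-3p cleared neither the filter nor a mean count of 10.

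Same-numbered PBS and METH libraries deviated together for numbers 2, 3 and 4 (correlations 0.54, 0.77 and 0.89), and these 3 of 4 numbers were each other's best match. Number 1 did not (−0.25), and because of it the numbers were not taken to pair the samples. If they do pair them, the main test leaves that pairing out. Number by number, METH lay above PBS in 4 of 4 for each member on normalised CPM. On TPM it did in 3 of 4 for miR-29a-3p, 3 of 4 for miR-29b-3p and 4 of 4 for miR-29c-3p. The share of all miRNAs with 4 of 4 was not computed. With TMM 126 of 166 miRNAs had a log2 fold change above 0. That is a different condition from METH lying above PBS at every number, and it does not cover TPM. Whether the counts by number are particular to the family was therefore not tested. With the replicate number as a block, edgeR called 0 miRNAs. The log2 fold changes were 0.54 (SE 0.37) for miR-29a-3p, 1.33 (SE 0.67) for miR-29b-3p and 0.90 (SE 1.02) for miR-29c-3p. Without the block the SEs were 0.60, 1.06 and 0.94. The edgeR p of the block fit was 0.180, 0.0808 and 0.381, and 0.995, 0.995 and 0.996 after adjustment. The ratio differences had exact sign-flip p from 0.125, the smallest possible, to 0.75. Depth limited miR-29c-3p most, since 3 reads, the limit that a count of 0 allows, correspond to 3.85 to 8.84 TPM in the 6 shallower libraries.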
